A study of Sus scrofa with 24 samples.

Results

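The pro-inflammatory cytokine genes in a set of 26 target genes, measured by quantitative RT-PCR in pig intestinal mucosa, were IL-1β, IL-6 and IL-8. They were taken by name and not by their values, though earlier results of these data were known. All 3 were measured in all 24 samples. The samples were scraped jejunal and ileal mucosa of 6 pigs with post-natal growth retardation (PGR pigs) and of 6 healthy pigs (Control), all 42 days of age. Each pig gave both tissues, which made 4 groups of 6 samples, and the labels name no treatment, genotype or sex. PGR and healthy pigs were matched by litter when they were chosen, but the labels do not say which pigs shared a litter, so the groups were compared as unpaired. Samples were grouped by title, since for 12 of them the field for tissue names the other tissue than the title does.

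IL-1β is a cytokine that macrophages and other myeloid cells make as an inactive precursor and release after it is cut in an inflammasome; through its receptor it switches on the genes of many other mediators. IL-6 is among the genes it switches on, and acts on B cells, T cells, epithelium and liver, where it drives the acute phase response. IL-8, also named CXCL8, is a chemokine made by epithelial cells and macrophages that draws neutrophils into the mucosa. Transcription of these genes follows Toll-like receptor signalling through the adaptor MyD88 and NF-κB, and IL-10 restrains it.

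The identifiers given for the IL-1β and IL-8 assays belonged to IL1B and CXCL8 in RefSeq's gene table (assembly Sscrofa11.1), and that of the IL-6 assay was not matched there. The same table lists IL1B2, a near copy of IL1B in pigs, and whether the IL-1β assay also amplifies it was not tested. The results are given on 2 scales. Ct is the PCR cycle at which a product crosses its threshold, as the mean of triplicate wells; a Ct lower by 1 cycle means about 2 times the template, and no reference gene enters it. The level is the deposited ratio to β-actin, set relative to the mean of healthy pigs in that tissue, which is 1. The ratio was left blank for 10 of the 72 values of the 3 genes, while the Ct of those samples was kept. Different assays have different thresholds and yields, so values are compared between pigs and tissues and not between genes.

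The 4 groups overlapped in IL-1β Ct, with PGR pig 3 apart from the rest in the jejunal mucosa. In the jejunal mucosa of healthy pigs, the lowest, median and highest Ct of IL-1β were 26.6, 27.0 and 27.7 cycles, and in PGR pigs 22.1, 26.8 and 28.2. The ileal values were 25.5, 26.7 and 28.1 in healthy pigs and 25, 27.5 and 28.4 in PGR pigs. The groups overlapped in both tissues, and PGR pig 3 was the lowest of the 12 pigs in each. Mean Ct was lowest in the jejunal mucosa of PGR pigs (26.4 ± 2.22, SD, n = 6), followed by the ileal (26.7 ± 0.875, SD, n = 6) and the jejunal mucosa (27.0 ± 0.422, SD, n = 6) of healthy pigs and by the ileal mucosa of PGR pigs (27.2 ± 1.18, SD, n = 6). No neighbours in this order were further apart than their spread.

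IL-6 Ct was lower in the ileal than in the jejunal groups, and the growth groups overlapped in both tissues. In the jejunal mucosa of healthy pigs, its lowest, median and highest Ct were 29.4, 30.4 and 30.7 cycles, and in PGR pigs 23.8, 30.2 and 31.1. The ileal values were 27.9, 28.0 and 28.5 in healthy pigs and 25.3, 27.8 and 28.3 in PGR pigs. All healthy pigs lay within the range of the PGR pigs in the jejunal mucosa, and all but healthy pig 5 did so in the ileal mucosa, with PGR pig 3 far below the others in the jejunal and PGR pigs 3 and 6 in the ileal mucosa. Mean Ct was lowest in the ileal mucosa of PGR pigs (27.1 ± 1.35, SD, n = 6), then in the ileal mucosa of healthy pigs (28.1 ± 0.246, SD, n = 6), the jejunal mucosa of PGR pigs (29.3 ± 2.70, SD, n = 6) and the jejunal mucosa of healthy pigs (30.3 ± 0.507, SD, n = 6). Neighbours in this order lay within the spread of the PGR groups, while healthy pigs had no overlap between their ileal and jejunal values.

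For IL-8 the growth groups overlapped in both tissues, and Ct was highest in the ileal mucosa of PGR pigs. Its lowest, median and highest jejunal Ct were 20.4, 20.9 and 21.7 cycles in healthy pigs and 20.2, 21.0 and 21.7 in PGR pigs. The ileal values were 20.1, 21.3 and 22.3 in healthy pigs and 21.1, 22.1 and 23 in PGR pigs. Mean Ct was close in the jejunal mucosa of PGR (21.0 ± 0.567, SD, n = 6) and healthy pigs (21.0 ± 0.502, SD, n = 6) and in the ileal mucosa of healthy pigs (21.2 ± 0.783, SD, n = 6). The ileal mucosa of PGR pigs stood last at 22.1 ± 0.681 (SD, n = 6), where 3 of the 6 PGR pigs had a higher Ct than all healthy pigs.

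**Figure D1:**
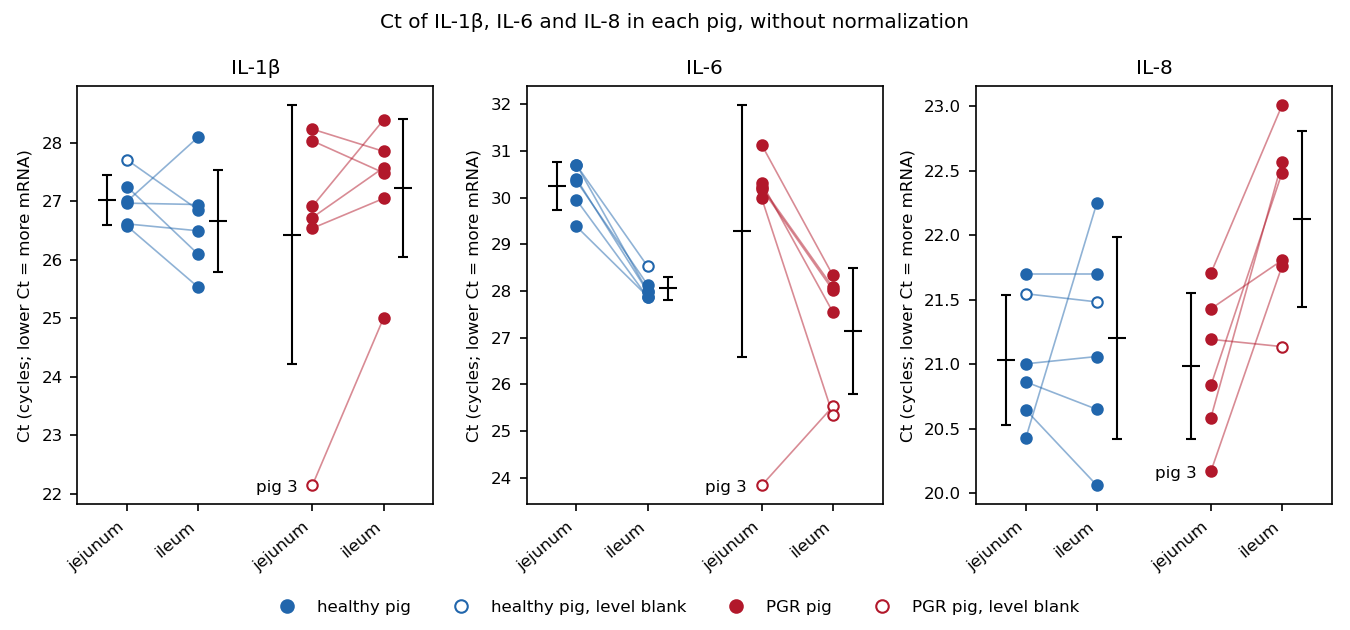
Ct in cycles (y axis) of IL-1β, IL-6 and IL-8 in the jejunal and ileal mucosa of 6 healthy and 6 PGR pigs, with a line joining the tissues of each pig, bars for the group mean and SD, and open points where the deposited level is blank. Jejunal Ct of PGR pig 3 was 22.1 for IL-1β and 23.8 for IL-6, and IL-6 had a lower Ct in the ileal mucosa in 11 of 12 pigs.

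Whether PGR pigs differed from healthy pigs was tested first on Ct. For none of the 3 genes was p under 0.05 in either tissue, against 26.9 percent of 26 jejunal and 20 percent of 25 ileal comparisons; ileal TLR4 was left out because its Ct is identical in both tissues. In the jejunal mucosa, the mean Ct of PGR pigs minus that of healthy pigs was −0.589 cycles for IL-1β (two-sided exact permutation p = 0.758), −0.966 for IL-6 (exact permutation p = 0.658) and −0.0444 for IL-8 (exact permutation p = 0.892). All 3 signs turned without PGR pig 3, to differences of 0.269, 0.125 and 0.119 cycles, and that of IL-8 also turned without other single pigs. The ileal difference was 0.558 cycles for IL-1β (exact permutation p = 0.370), and 1.00 cycles without PGR pig 3 (exact permutation p = 0.0519). For IL-6 the ileal difference was −0.922 cycles (exact permutation p = 0.169, and 0.0368 without PGR pig 2). Dropping any other pig kept this p of IL-6 over 0.05, in 11 of 12 cases and up to 0.331. For IL-8 the ileal difference was 0.927 cycles, toward less template in PGR pigs (exact permutation p = 0.0563, adjusted p = 0.221 over 51 comparisons). Leaving out healthy pig 4 or PGR pig 1 brought the exact permutation p of IL-8 to 0.0238. Dropping any other pig kept this p of IL-8 over 0.05, in 10 of 12 cases and up to 0.113. The exact permutation p of IL-8 was 0.0260 when the mean Ct of the 23 other genes was subtracted from each sample. Without the pigs whose level is blank, the ileal IL-8 difference was 1.18 cycles (exact permutation p = 0.0317). With the pig number as a block, the exact p of ileal IL-8 was 0.0313. The samples are whole mucosa, so fewer cells that express a gene and less mRNA per cell cannot be told apart.

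On the level relative to β-actin, unadjusted p was under 0.05 for all 3 genes in the jejunal mucosa, all lower in PGR pigs, against 50 percent of the 26 genes. Among the ileal values this held for IL-8 alone, also lower, and again 50 percent of the 26 genes were called lower. With adjustment over 52 comparisons none of the 6 values passed (adjusted p from 0.0728 to 0.815), so no member of the list was called by this test. The share over all 26 genes was also 0 percent in each tissue. By limma's moderated test on the log2 level, with p adjusted over the 26 genes of the jejunal mucosa, IL-1β and IL-6 passed (adjusted p = 0.0485 for both) and IL-8 did not (adjusted p = 0.0526), against 30.8 percent of the 26 genes called lower. Adjusted over the same 52 comparisons as the main test, limma's p passed for none of the 6 values either (adjusted p from 0.0584 to 0.834). The share of all 52 comparisons that passed this adjustment was not counted, so it gives no contrast with the other genes. The median jejunal level of all 26 genes was 0.643 in PGR pigs, beside 0.576 for IL-1β, 0.624 for IL-8 and 0.629 for IL-6.

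The kept levels show how the groups lay. Jejunal IL-1β was at 0.301, 0.353, 0.584, 0.784 and 0.860 in the 5 PGR pigs with a value and at 0.814 to 1.19 in the 5 healthy pigs (exact permutation p = 0.0317), so that only PGR pig 1 lay within the healthy range. For jejunal IL-6 the PGR values were 0.395, 0.539, 0.701, 0.737 and 0.772, against 0.742 to 1.27 (exact permutation p = 0.0159). PGR pig 5 alone was within the healthy range for IL-6. Jejunal IL-8 ran from 0.437 to 0.763 in 6 PGR pigs and from 0.671 to 1.39 in 5 healthy pigs (exact permutation p = 0.0173), with PGR pigs 3 and 4 in the overlap.

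In the ileal mucosa the level of IL-1β averaged above that of healthy pigs, and those of IL-6 and IL-8 below it. Ileal IL-1β was complete, and 4 PGR pigs lay at 0.414 to 0.892 while PGR pigs 6 and 3 were at 1.74 and 2.76, above the highest healthy pig at 1.37 (mean 1.13 ± 0.946, SD, n = 6, exact permutation p = 0.784). Without PGR pig 3 the mean was 0.798, below that of healthy pigs. The ratio for ileal IL-1β was also below 1 on the log2 scale (0.912), with no reference gene (0.839), with the mean of the 26 targets as reference (0.707) and with the β-actin readings used for IL-6 (0.608), so its direction was not stable. Ileal IL-6 had 4 kept PGR values, 0.540, 0.593, 0.650 and 1.03, beside 0.804 to 1.199 in healthy pigs (exact permutation p = 0.0635). Ileal IL-8 was at 0.411 to 0.503 in 4 PGR pigs and at 0.795 in PGR pig 6, and healthy pigs ran from 0.548 to 1.49 (exact permutation p = 0.0238).

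The β-actin Ct that enters the jejunal levels was 13.8 ± 0.506 (SD, n = 6) in healthy and 13.3 ± 0.301 (SD, n = 6) in PGR pigs (exact permutation p = 0.0866). The β-actin Ct that enters the ileal IL-6 level was 13.3 ± 0.218 (SD, n = 6) in healthy and 12.8 ± 0.247 (SD, n = 6) in PGR pigs, with no overlap (exact permutation p = 0.00216). In the pigs with a kept level, and with no reference gene, the ileal IL-6 ratio of PGR to healthy pigs was 1.0006 (exact permutation p = 1), beside 0.704 on the level; over all 12 pigs the Ct difference was −0.922 cycles, toward more template in PGR pigs. In the same way, the jejunal ratios of PGR to healthy pigs over kept values were 0.828 for IL-1β, 0.845 for IL-6 and 0.983 for IL-8 (exact permutation p = 0.397, 0.516 and 0.944), whereas the Ct differences over all 12 pigs, −0.589, −0.966 and −0.0444 cycles, pointed to more template in PGR pigs. Over kept values the unadjusted p of ileal IL-8 stayed under 0.05 with no reference gene, at 0.405 (exact permutation p = 0.0317). With all 26 targets averaged as the reference, ileal IL-8 was at 0.398 (exact permutation p = 0.0238). The β-actin Ct that enters the ileal IL-1β and IL-8 levels was 14.3 ± 0.938 (SD, n = 6) in healthy and 14.7 ± 0.677 (SD, n = 6) in PGR pigs (exact permutation p = 0.392). Leaving out single pigs brought p over 0.05 in 5 of 10 fits for jejunal IL-1β, 0 of 10 for jejunal IL-6, 3 of 11 for jejunal IL-8 and 6 of 10 for ileal IL-8.

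The blank values of the 3 genes lay outside the kept values of their groups in every case, and in opposite directions. Each was recomputed as the power of 2 of the difference between the β-actin Ct recovered for that sample and the Ct of the gene. All 5 blank values of healthy pigs were below the lowest kept healthy value, and all 5 blank values of PGR pigs were above the highest kept PGR value. Over all 26 genes, 19 of the 38 recomputed healthy values were below the kept range and 16 above it, and 31 of the 36 recomputed PGR values were above it and 5 below. The sources used here give no rule for the blank values, and why these were left blank was not tested.

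For IL-1β the blank jejunal values were 0.350 in healthy pig 3 and 12.4 in PGR pig 3. For IL-6 they were 0.457 in healthy pig 5 and 37.6 in PGR pig 3 in the jejunal mucosa, and 0.534 in healthy pig 5, 3.75 in PGR pig 3 and 3.13 in PGR pig 6 in the ileal mucosa. IL-8 had blank values of 0.394 in healthy pig 3 in the jejunal mucosa, and of 0.373 in healthy pig 3 and 0.852 in PGR pig 1 in the ileal mucosa. The healthy pigs with a blank value thus lay within the kept PGR values or below them, and the PGR pigs with one lay above all healthy pigs for IL-1β and IL-6 but not for IL-8. With all blank values filled, the ratio of the PGR mean to the healthy mean was 2.86 for jejunal IL-1β (exact permutation p = 0.948), 7.47 for jejunal IL-6 (exact permutation p = 0.965) and 0.694 for jejunal IL-8 (exact permutation p = 0.128). The ileal ratio was 1.75 for IL-6 (exact permutation p = 0.416) and 0.657 for IL-8 (exact permutation p = 0.182). With the blank values filled and PGR pig 3 left out, a setting chosen after the values were seen, jejunal IL-1β was at 0.646 (exact permutation p = 0.104) and jejunal IL-6 at 0.691 (exact permutation p = 0.0779).

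**Figure D2:**
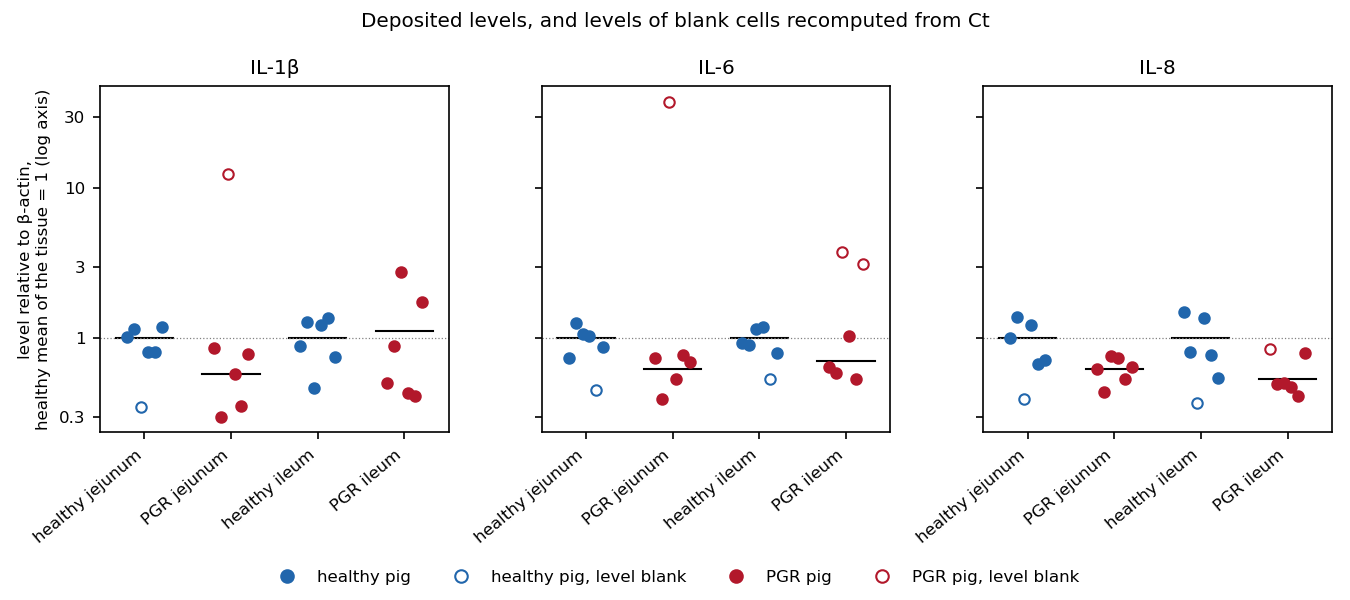
Level relative to β-actin (log y axis, healthy mean of the tissue set to 1) of each healthy and PGR pig in both tissues, with filled points for deposited values, open points for blank values recomputed from Ct, and bars for the mean of the deposited values. The open points of healthy pigs, from 0.350 to 0.534, are the lowest of their groups, and those of PGR pigs, from 0.852 to 37.6, the highest of theirs.

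PGR pig 3 had by far the most IL-1β and IL-6 mRNA of all pigs in the jejunal mucosa. Its IL-6 Ct of 23.8 lay −6.49 cycles from the median of the other 11 pigs, which ran from 29.4 to 31.1. Its IL-1β Ct of 22.1 lay −4.83 cycles from their median, with the other pigs at 26.5 to 28.2. Among the 26 jejunal genes these were the 2 largest shifts of this pig toward more template. IL-8 shifted less, by −0.833 cycles, though PGR pig 3 again had the lowest Ct of the 12 pigs at 20.2.

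Other genes stood apart in the same sample. The jejunal Ct of PGR pig 3 was the lowest of the 12 pigs for 10 of 26 genes. Beside the cytokine genes these were IFNγ (−2.63 cycles against the median of the other pigs), the IL-4 assay (−1.43), IL-10 (−1.15), AgRP (−0.887), MyD88 (−0.737), NQO1 (−0.413) and mTOR (−0.327). TLR4 (−1.05) was not the lowest. This sample had the highest Ct for 4 genes, Nrf2 (3.76 cycles), GHR (2.17), HO-1 (2.17) and SERT (1.52). These, AgRP, NQO1 and mTOR were named after their values were seen. The median shift over the 26 genes was −0.347 cycles, so the whole sample did not move by the size seen for IL-1β and IL-6.

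PGR pig 3 was low in the ileal mucosa too, for IL-1β at a Ct of 25 (−2.05 cycles from the median of the other pigs) and for IL-6 at 25.5 (−2.47 cycles). Its ileal IL-8 Ct of 21.8 was in the middle of the pigs, 0.06 cycles from their median. The ileal sample of PGR pig 3 was the lowest of the 12 pigs for 11 of 25 genes, with a median shift of −0.523 cycles. It was the highest for 1 gene, IFNγ (1.42 cycles), opposite to the jejunal mucosa. GHRL (−3.3 cycles) and Nrf2 (−2.73) shifted more than IL-6 and IL-1β. PGR pig 6 had the lowest ileal IL-6 Ct, at 25.3 (−2.65 cycles), the largest shift toward more template among its 25 ileal genes. IL-1β was not low in that pig, at a Ct of 27.1 (0.103 cycles from the median), and neither was its jejunal IL-6 Ct, at 30.0.

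The next comparison was between the tissues within each pig. Whether each tissue was run on plates of its own is not known, and on Ct this cannot be told apart from the tissue. CCK, an enteroendocrine hormone gene known to be higher in the proximal small intestine, served as a check of the tissue names: its Ct was higher in the ileal mucosa by 2.86 ± 0.854 cycles (SD, n = 12), in 12 of 12 pigs. Of the 25 genes tested on Ct, 16 percent had more template in the ileal mucosa at an adjusted p under 0.05, and IL-6 was the only 1 of the 3 cytokine genes among them. On the log2 level 16 percent were higher in the ileal mucosa, and these included IL-6 and IL-1β.

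IL-6 had a lower Ct and a higher level in the ileal mucosa. The ileal minus the jejunal Ct of IL-6 ran from −2.71 to −1.503 cycles in the 6 healthy pigs; it was negative in 5 PGR pigs, down to −4.65, and 1.69 in PGR pig 3. The mean difference over 12 pigs was −2.17 ± 1.43 cycles (SD, n = 12; two-sided exact sign-flip permutation p = 0.00146, adjusted p = 0.00333 over 25 genes). This was the largest difference toward the ileal mucosa among the 25 genes. The log2 level of IL-6 was higher in the ileal mucosa in 9 of 9 pigs with both values, by 1.18 to 2.63 and on average by 1.79 ± 0.48 (SD, n = 9), a ratio of 3.46 (exact permutation p = 0.00391, the smallest that 9 pairs allow; adjusted p = 0.00888). Healthy and PGR pigs differed from jejunal to ileal mucosa by −2.19 ± 0.403 (SD, n = 6) and −2.14 ± 2.09 cycles (SD, n = 6). In healthy pigs alone IL-6 reached the smallest exact permutation p of 6 pairs, 0.0313 (adjusted p = 0.0601), with lower ileal Ct, as did 12 percent of the 25 genes. In PGR pigs alone the exact permutation p of IL-6 on Ct was 0.0625 (adjusted p = 0.120).

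The 9 fits for IL-6 without a pig gave a log2 level difference of 1.69 to 1.87, and the 12 fits on Ct gave −2.52 to −1.94 cycles, all with an exact permutation p under 0.05. With the mean Ct of the 23 other genes subtracted, the difference was −3.12 cycles (exact permutation p = 0.000977). That mean was itself higher in the ileal mucosa, so subtracting it moved all 3 cytokine genes toward more ileal template. The mean also held the TLR4 Ct, which was left out of the tests between tissues.

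IL-1β gave a different answer on each scale. Its Ct was 0.223 ± 1.19 cycles higher in the ileal mucosa (SD, n = 12), with 5 pigs higher and 7 lower (exact sign-flip permutation p = 0.553). Its log2 level was 0.92 ± 0.78 higher (SD, n = 10) in the ileal mucosa, in 9 of 10 pigs, a ratio of 1.90 (exact permutation p = 0.00586, adjusted p = 0.0122). The 2 scales differ by the β-actin reading, and the level also lacks healthy pig 3 and PGR pig 3. With blank values filled, the log2 level difference of IL-1β was 0.74 (exact permutation p = 0.0298). Without PGR pig 3, its Ct difference was −0.0168 cycles. Ileal IL-1β and IL-8 were normalized with β-actin readings of their own, which were 0.959 ± 0.876 cycles (SD, n = 6) above those used for ileal IL-6 in healthy pigs and 1.92 ± 0.725 cycles (SD, n = 6) above them in PGR pigs. With the readings used for IL-6, the ileal minus the jejunal log2 level of IL-1β was −0.68 (exact permutation p = 0.0332), so its direction turned with the β-actin readings. On Ct it turned as well when the mean of the 23 other genes was subtracted, to −0.734 cycles (exact permutation p = 0.0791).

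IL-8 did not pass the adjusted test on either scale. Its Ct was 0.656 ± 0.935 cycles higher in the ileal mucosa (SD, n = 12), in 7 pigs, lower in 4 and equal in healthy pig 6 (exact permutation p = 0.0449, adjusted p = 0.0661). In 6 of the 12 fits without a pig p was over 0.05, and with the mean Ct of the 23 other genes subtracted the direction of IL-8 turned, to −0.302 cycles (exact permutation p = 0.327). By growth, the IL-8 difference was 0.170 ± 0.844 cycles in healthy pigs (SD, n = 6) and 1.14 ± 0.802 in PGR pigs (SD, n = 6), of which 5 of 6 were higher in the ileal mucosa. Its log2 level was 0.25 ± 0.47 higher there (SD, n = 10), in 5 of 10 pigs (exact permutation p = 0.133), and with the β-actin readings used for IL-6 the difference was −1.34 (exact permutation p = 0.00586).

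Whether the difference between PGR and healthy pigs changed with the tissue was tested with the jejunal minus ileal value of each pig. No member passed on the log2 level, against 8 percent of 25 genes at an unadjusted p under 0.05, or on Ct, against 0 percent. On Ct, jejunal minus ileal IL-8 was −0.170 cycles in healthy and −1.14 in PGR pigs (difference −0.972, exact permutation p = 0.0693). For IL-1β the values were 0.350 and −0.797 cycles (difference −1.15, exact permutation p = 0.0931), and for IL-6 they were 2.19 and 2.14 (difference −0.0444, exact permutation p = 0.961). On the log2 level, exact permutation p was 0.563 for IL-8, 0.595 for IL-6 and 0.683 for IL-1β. Adjusted over 25 genes, p on Ct was 0.465 for both IL-8 and IL-1β.

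The co-variation of the 3 genes was measured on Ct over the 12 pigs, as 6 gene pairs within a tissue and 3 genes between tissues, 9 relations in all. Genes measured in a sample share its amount of cDNA, so each r stands beside the median r of all gene pairs of the tissue, 0.120 over 325 jejunal pairs and 0.225 over 300 ileal pairs. Jejunal IL-1β and IL-6 had the highest r of the 325 pairs, 0.913 (permutation p = 0.0331, adjusted p = 0.0708), with a rho of only 0.259 (permutation p = 0.414). That relation rested on PGR pig 3. Without this pig r was 0.0879, without PGR pigs 3 and 2, the farthest from the median of IL-1β, it was −0.432 (permutation p = 0.214), and over the 9 pigs with no blank value for either gene it was 0.558 (permutation p = 0.107).

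IL-1β and IL-8 had the relation in the jejunal mucosa that depended least on PGR pig 3. Their r was 0.688 (permutation p = 0.00115, adjusted p = 0.0103) and rho 0.664 (permutation p = 0.0220, adjusted p = 0.0659), the 19th highest r of the 325 pairs. Without PGR pig 3 it was 0.658 (permutation p = 0.0291), and in the 12 fits without a pig it lay between 0.647 and 0.760. Without PGR pigs 3 and 2 r was 0.542 (permutation p = 0.105), and over the 10 pigs with no blank value it was 0.618 (permutation p = 0.0576), so p under 0.05 rested in part on these pigs. After subtraction of the mean Ct of the 23 other genes r was 0.666 (permutation p = 0.00305).

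IL-6 and IL-8 had a jejunal r of 0.548 (permutation p = 0.0240, adjusted p = 0.0708) and a rho of 0.517 (permutation p = 0.0895). Without PGR pig 3 alone r was 0.226, but without PGR pig 3 and healthy pig 3, the farthest from the median of IL-6, it was 0.640 (permutation p = 0.0443). Over the 9 pigs with no blank value it was 0.717 (permutation p = 0.0221). Within groups of 6, jejunal IL-1β and IL-6 had r of −0.769 in healthy pigs (exact permutation p = 0.0694) and of 0.971 in PGR pigs (exact permutation p = 0.0139), the latter again with PGR pig 3 far from the rest. For IL-1β and IL-8 these were 0.524 and 0.854, and for IL-6 and IL-8 −0.0649 and 0.766; whether r differs between the growth groups was not tested.

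**Figure D3:**
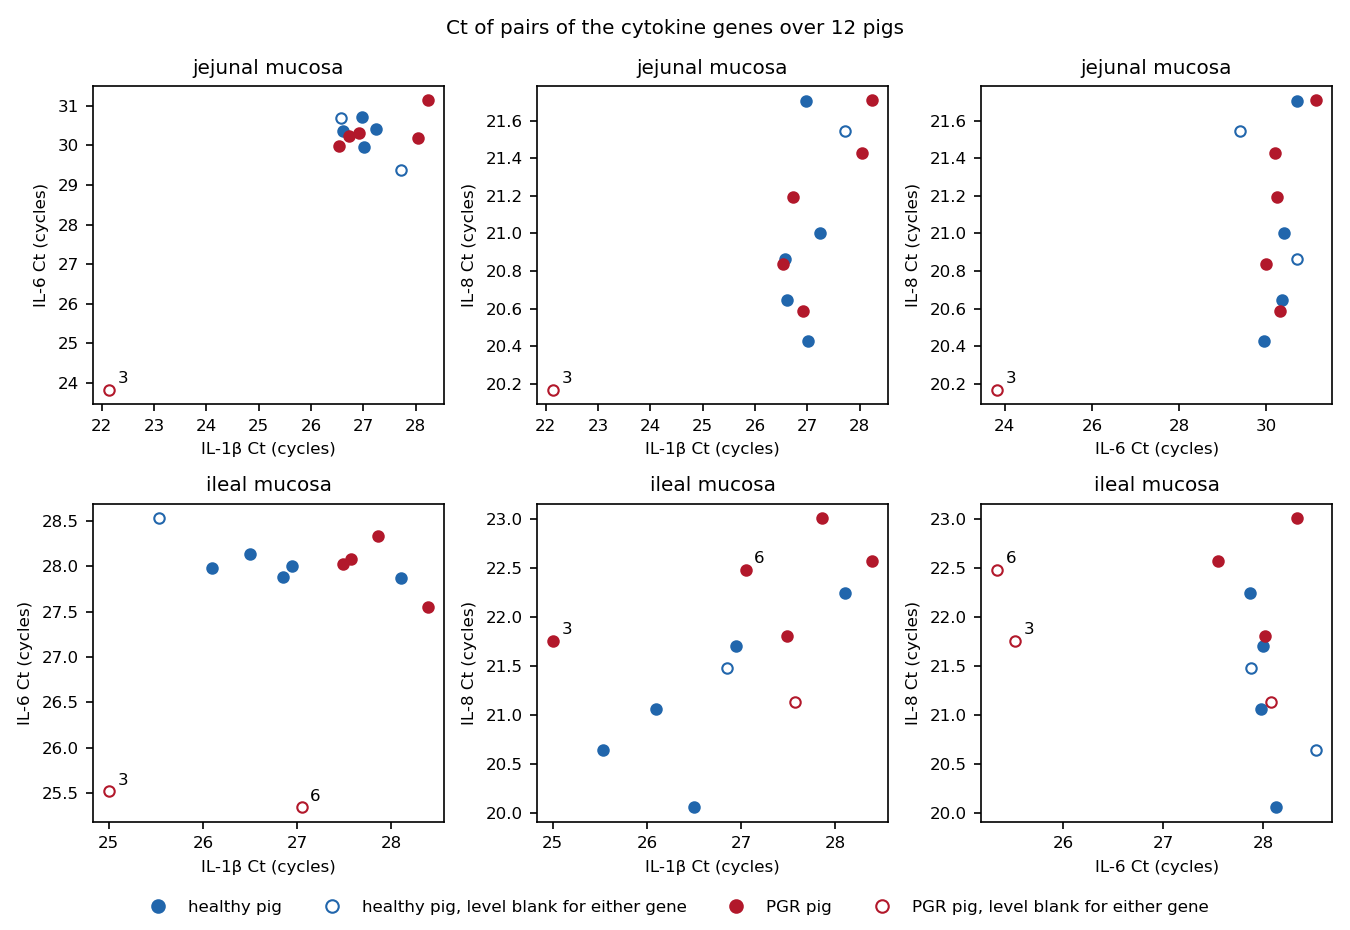
Ct in cycles of IL-1β against IL-6, IL-1β against IL-8 and IL-6 against IL-8 in the jejunal (upper row) and ileal mucosa (lower row), with 1 point per pig, open where the deposited level is blank for either gene, and PGR pigs 3 and 6 marked by number. In the jejunal mucosa PGR pig 3 lies alone at low Ct, and r of IL-1β with IL-6 is 0.913 with it and 0.0879 without it.

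Among the ileal values IL-1β and IL-8 had the highest r of the 3 pairs over 12 pigs, and the pairs with IL-6 did not reach p under 0.05. IL-1β and IL-8 had an r of 0.575 (permutation p = 0.0497, adjusted p = 0.0746) and a rho of 0.692 (permutation p = 0.0160, adjusted p = 0.0659). The relation was closer without PGR pig 3, with r at 0.742 (permutation p = 0.00870), and over the 10 pigs with no blank value r was 0.638 (permutation p = 0.0476). Without PGR pig 3 and healthy pig 5, the farthest from the median of IL-1β, it was 0.699 (permutation p = 0.0233). The unadjusted p was not stable: it was over 0.05 in 9 of the 12 fits without a pig (up to 0.123), with r centred on the growth groups (0.525, permutation p = 0.0905) and after subtraction of the mean Ct of the 23 other genes (0.484, permutation p = 0.109). IL-1β and IL-6 had an r of 0.282 (permutation p = 0.379; rho −0.0979, permutation p = 0.768), which became −0.146 without PGR pig 3. For IL-6 and IL-8 r was −0.329 (permutation p = 0.292; rho −0.441, permutation p = 0.154), the 280th of the 300 pairs; it was −0.350 without PGR pigs 6 and 3 and −0.150 over the 7 pigs with no blank value. Within groups of 6, ileal IL-1β and IL-6 had r of −0.767 in healthy pigs (exact permutation p = 0.100) and of 0.718 in PGR pigs (exact permutation p = 0.0625). These r were of opposite sign, and whether r differs between the growth groups was not tested. For ileal IL-6 and IL-8 r was −0.635 in healthy pigs (exact permutation p = 0.188) and −0.00746 in PGR pigs. For ileal IL-1β and IL-8 it was 0.761 in healthy pigs (exact permutation p = 0.0778) and 0.346 in PGR pigs (exact permutation p = 0.560).

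Between tissues, pigs with a low jejunal Ct of IL-6 or IL-1β tended to have a low ileal Ct, and PGR pig 3 carried much of r for both genes. For IL-6 r was 0.679 (permutation p = 0.0393, adjusted p = 0.0708) and rho 0.692 (permutation p = 0.0151, adjusted p = 0.0659), the highest r of the 25 genes, whose median was 0.146. Without PGR pig 3 r was 0.377 (permutation p = 0.221) but rho was still 0.627 (permutation p = 0.0446), so the order of the pigs depended little on this pig. The r of IL-6 without PGR pig 6 was 0.964, and without PGR pig 3 and healthy pig 3 it was 0.537 (permutation p = 0.113). IL-1β had an r of 0.642 between the tissues (permutation p = 0.0172, adjusted p = 0.0708; rho 0.434, permutation p = 0.160), and of 0.171 without PGR pigs 3 and 2 (permutation p = 0.635); without PGR pig 3 alone its rho was 0.264. IL-8 showed no relation between the tissues (r = 0.128, permutation p = 0.689; rho 0.0140, permutation p = 0.974; r = −0.170 without PGR pig 2 and healthy pig 6). Of the 9 relations only jejunal IL-1β with IL-8 had an adjusted p of r under 0.05.

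Of the genes other than the 3 cytokine genes, 23 of them jejunal and 22 ileal, those whose Ct had the highest r with each cytokine gene over 12 pigs are given as a description. In the jejunal mucosa the IL-4 assay, which by its identifier measures the interleukin 4 receptor IL4R, had the highest r with all 3: 0.835 with IL-6, 0.803 with IL-1β and 0.690 with IL-8. Without PGR pig 3 these were 0.515, 0.329 and 0.536, and rho over all 12 pigs was 0.524, 0.476 and 0.615. Next came IL-10 for IL-6 (r = 0.785, or 0.406 without PGR pig 3), IFNγ for IL-1β (0.668, or 0.0661) and MyD88 for IL-8 (0.524, or 0.295). On the ileal side the IL-4 assay again led for IL-6 (0.848, or 0.749 without PGR pig 3), though rho was only 0.119 and PGR pigs 3 and 6 were lowest for both genes, followed by the insulin receptor gene INSR (0.578, or 0.101). INSR (0.728, or 0.526) and GLP-1R (0.687, or 0.748) were closest to ileal IL-1β, and GLP-1R (0.515, or 0.527) and IGF-1 (0.458, or 0.480) to ileal IL-8.

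Beside the 3 cytokine genes, the pathway list held IL-10, IFNγ, the IL-4 assay, TLR4 and MyD88. On the level relative to β-actin, unadjusted p was under 0.05 for 2 of these 5 genes in the jejunal mucosa (IL-10 and TLR4) and for 1 of 4 in the ileal mucosa (IL-10), all lower in PGR pigs, beside 50 percent of the 26 genes in each tissue. The 4 ileal genes leave out TLR4, which is among the 26 (ileal level 0.886, exact permutation p = 0.675). On Ct the counts were 0 of 5 and 2 of 4, beside 26.9 and 20 percent, and both ileal genes had more template in PGR pigs. These were the signalling adaptor MyD88, at −0.374 cycles (exact permutation p = 0.00216, adjusted p = 0.0368), and the IL-4 assay, at −0.422 (exact permutation p = 0.0173, adjusted p = 0.126), whereas ileal IL-8 lay at 0.927 cycles and ileal IL-6 at −0.922 without passing. On the level both ileal genes were lower in PGR pigs without passing, MyD88 at 0.906 (exact permutation p = 0.277) and the IL-4 assay at 0.864 (exact permutation p = 0.110), so their direction turned with the scale. The β-actin Ct behind both ratios, the same as for ileal IL-6, differed by −0.534 cycles between PGR and healthy pigs. Between the tissues, IL-10, a cytokine that restrains IL-1β and IL-6 expression, had a lower Ct in the ileal mucosa in 12 of 12 pigs, with a difference of −0.951 ± 0.414 cycles (SD, n = 12, exact permutation p = 0.000488, adjusted p = 0.00153). It was the gene next to IL-6 in that direction. Of the 4 pathway genes tested between tissues, 2 had more ileal template on Ct at an adjusted p under 0.05 (IL-10 and the IL-4 assay). Of all 25 genes, 16 percent did so. At any p, the mean ileal Ct was also lower for the other pathway genes tested, IFNγ (−0.321 cycles) and MyD88 (−0.134 cycles), which did not pass. It was higher for 17 of the 25 genes, again at any p. On the log2 level 1 pathway gene was higher (IL-10) and 1 lower, MyD88, in 9 of 9 pigs (adjusted p = 0.00888), beside 16 percent of the 25 genes higher and 64 percent lower.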

How the data were processed

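Scraped jejunal and ileal mucosa of 6 healthy and 6 PGR pigs was assayed by SYBR Green RT-PCR. The authors deposited the mean Ct of triplicate wells, in cycles and not normalized, and a ratio of each target gene to β-actin (2^−ΔCt) with some values blank. A deposited table of folds over the healthy mean was not used. A Ct carries no counting depth. The β-actin Ct behind each ratio is the sum of the gene's Ct and log2 ratio (tolerance 0.01 cycles) and served to fill blank values.

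Groups were compared by two-sided exact permutation tests (924 splits for 6 against 6), tissues by exact sign-flip permutation within pigs, which the labels number over 12 donors, and relations by r and rho with 100000 permutations, or all pairings for under 10 pigs. Benjamini-Hochberg adjustment covered 52 levels, 51 Ct values, 25 genes between tissues and 9 relations. The tests were first run on simulated data.

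The cytokine genes and the pathway list were chosen with earlier results of these data known. Also named were β-actin, CCK, and for each cytokine gene and tissue the 2 other genes with the highest r. Alternatives were the log2 scale, limma's moderated test, other references, filled values, blocks and pigs left out. Software was R 4.3.3 with limma 3.58.1 and Python 3.11.15 with scipy 1.17.1, numpy 2.4.6, matplotlib 3.10.9 and pandas 2.3.3.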

Additional observations from a re-analysis of the deposited data

Results flagged for a closer look

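In 5 of 36 groups of pigs, 1 pig stood far from the others; chance alone flags about 1 in 20 groups. PGR pig 3 had a jejunal IL-1β Ct of 22.14 cycles, beside 26.5 to 28.2 in the other PGR pigs. The jejunal IL-6 Ct of the same pig was 23.83, beside 30.0 to 31.1. PGR pig 6 had an ileal IL-8 level of 0.795, beside 0.411 to 0.503 in the other PGR pigs with a value. The blank ileal IL-8 value of PGR pig 1 was recomputed as 0.852, so with it PGR pig 6 did not stand alone. The β-actin Ct used for ileal IL-1β and IL-8 was 16.09 in healthy pig 4, beside 13.5 to 14.2 in the other healthy pigs. In healthy pig 4, the ileal minus the jejunal Ct of IL-8 was 1.83 cycles, beside −0.587 to 0.0567 in the other healthy pigs. The 6 tests of whether the difference between PGR and healthy pigs changed with the tissue gave no p under 0.05.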

How the results depend on the processing

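Across the alternatives other than leaving out single pigs, 87 values kept their direction and their side of the threshold of p, 43 turned in direction, 38 lost an unadjusted p under 0.05 and 12 gained it; the causes were not tested. IL-6 between the tissues over all pigs kept its direction and call in every setting run. For the level of PGR over healthy pigs, values are given in the order IL-1β, IL-6, IL-8. With blank values filled they were 2.86, 7.47 and 0.694 in the jejunal mucosa, and 1.75 for IL-6 and 0.657 for IL-8 in the ileal mucosa; the β-actin readings of Nrf2 left the first 4 of these as they were, gave 0.608 for ileal IL-1β, filled or not, and moved ileal IL-8 to 0.354 filled (exact permutation p = 0.00866) and to 0.2799 not filled (exact permutation p = 0.00794), so the unadjusted p stayed under 0.05 on filling with these readings. Filled without PGR pig 3, a setting added after the values were seen like the next, they were 0.646, 0.691 and 0.663 (jejunal) and 0.798, 1.29 and 0.676 (ileal); filled on the log2 scale, 1.08, 1.40 and 0.740 (jejunal) and 0.912, 1.31 and 0.706 (ileal). Against the mean Ct of all 26 targets, jejunal values were 0.856, 0.935 and 0.962 and ileal IL-1β 0.707; with no reference gene, both in the pigs with a kept level, they were 0.828, 0.845 and 0.983, with ileal IL-1β at 0.839 and IL-6 at 1.0006. The log2 scale and limma both put ileal IL-1β at 0.912, and by limma ileal IL-6, at 0.689, had an unadjusted p of 0.0358 (adjusted p = 0.0775 over 26 genes).

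Pig numbers are shared between healthy and PGR pigs, and as a block they gave levels of 0.537, 0.599 and 0.611 (jejunal), 0.912 for ileal IL-1β, 0.633 for ileal IL-8, and 0.927 cycles for ileal IL-8 Ct (exact p = 0.0313, unadjusted p under 0.05 gained). The 4 levels with an unadjusted p under 0.05 without the block were over it with the block, at exact p = 0.0625, 0.125 and 0.0625 (jejunal) and 0.25 (ileal IL-8); only 5, 4, 5 and 4 pairs were complete, and the 3 jejunal values are the smallest that so few pairs allow. The block changed no other call at that threshold. The correlation of deviations from the group means between pigs with the same number ran from −0.375 to 0.321 in the jejunal and from −0.191 to 0.290 in the ileal mucosa, and in each tissue 1 of 6 healthy pigs correlated best with the PGR pig of its own number. Pigs were matched by litter, but neither the labels nor these correlations show that the numbers mark the litters, so the block was not used in the main tests. Between tissues, the fit with no replicate block gave a log2 difference of 1.70 for IL-6 in healthy and 1.85 in PGR pigs (exact permutation p = 0.00794 for both) and a Ct difference of 1.14 for IL-8 in PGR pigs (exact permutation p = 0.0152).

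Without the pigs whose level is blank, the Ct of PGR minus healthy pigs was 0.407, 0.215 and 0.0586 cycles in the jejunal mucosa, and 0.0252 for IL-6 and 1.18 for IL-8 in the ileal mucosa. Minus the mean Ct of the 23 other genes it was 1.05 for ileal IL-8, and ileal minus jejunal Ct was −0.734 for IL-1β and −0.302 for IL-8 over all pigs, −1.42 and −0.903 in healthy pigs, and −0.0453 for IL-1β in PGR pigs. The log2 level of ileal minus jejunal mucosa with the β-actin readings of Nrf2 was −0.68 for IL-1β and −1.34 for IL-8 over all pigs, −0.35 and −0.82 in healthy and −1.002 and −1.86 in PGR pigs. Filled, it was 0.31 for IL-8 over all pigs (0.35 without PGR pig 3), and 0.86 for IL-1β and 1.74 for IL-6 in healthy pigs. The difference of the PGR effect between tissues turned to 0.24 (IL-1β) and 0.10 (IL-6) when filled, and to 1.15 and 0.0444 with no reference gene over all 12 pigs.

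For r of Ct, leaving out the 2 pigs farthest from the median gave −0.432 (jejunal IL-1β with IL-6), 0.542 (jejunal IL-1β with IL-8), 0.171, 0.537 and −0.170 (between tissues, in gene order). Without the pigs with a blank level r was 0.558 and 0.618 for the same jejunal pairs, −0.313 for ileal IL-1β with IL-6, and 0.352 and 0.513 for IL-1β and IL-6 between tissues. Centred on the growth groups, r was 0.910 and 0.556 (jejunal IL-6 with IL-1β and with IL-8), 0.525 (ileal IL-1β with IL-8) and 0.651 (IL-6 between tissues). Minus the mean Ct of the 23 other genes it was 0.916 (jejunal IL-1β with IL-6), 0.484 (ileal IL-1β with IL-8), 0.528, 0.570 and −0.125 (between tissues). Without PGR pigs 3 and 6, added after the values were seen, it was 0.0127 and 0.193 (jejunal IL-6 with IL-1β and with IL-8), −0.586 (ileal IL-1β with IL-6), and 0.308 and 0.550 (IL-1β and IL-6 between tissues).

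Leaving out each pig in turn gave levels of 0.505 to 0.645 (jejunal IL-1β), 0.576 to 0.690 (jejunal IL-8), 0.798 to 1.27, 0.594 to 0.758 and 0.471 to 0.610 (ileal, in gene order). Jejunal IL-1β lost p under 0.05 in 5 of 10 of these fits (p up to 0.0635), jejunal IL-8 in 3 of 11 (up to 0.0556) and ileal IL-8 in 6 of 10 (up to 0.0635), while ileal IL-6 gained it in 1 of 9. On Ct, PGR minus healthy pigs ran from −0.950 to 0.269, −1.34 to 0.125 and −0.188 to 0.119 (jejunal). The ileal values ran from 0.325 to 1.00 for IL-1β, −1.16 to −0.562 for IL-6 and 0.699 to 1.14 for IL-8. Ileal minus jejunal Ct ran from −0.0168 to 0.349 for IL-1β and 0.535 to 0.769 for IL-8 over all pigs, and from −2.33 to −2.08 for IL-6 and −0.161 to 0.321 for IL-8 in healthy pigs, where 5 pairs cannot reach p under 0.05. For IL-1β, ileal minus jejunal Ct ran from −0.640 to −0.189 in healthy and from 0.383 to 1.07 in PGR pigs. The difference of the PGR effect between tissues ran from −0.50 to 0.0790 (IL-1β) and −0.44 to 0.0449 (IL-6). Jejunal r ran from 0.0879 to 0.947 (IL-1β with IL-6) and 0.226 to 0.604 (IL-6 with IL-8), ileal r from −0.146 to 0.466 (IL-1β with IL-6) and 0.493 to 0.742 (IL-1β with IL-8), and r between tissues from 0.2996 to 0.698, 0.377 to 0.964 and −0.109 to 0.237. A Ct mean of triplicate wells holds no depth, and 4 to 6 pigs per group limit the tests between groups, and 7 to 12 pigs those over both groups.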
